A study of Oryza sativa with 2 samples.

Results

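Fermentation and its companion hemoglobins were represented by 8 rice genes, taken from a table of 57446 by their locus identifiers. They are the alcohol dehydrogenase genes ADH1 (LOC_Os11g10480) and ADH2 (LOC_Os11g10510), the pyruvate decarboxylase genes PDC1 (LOC_Os05g39310) and PDC2 (LOC_Os03g18220), and the non-symbiotic hemoglobin genes NSHB1 (LOC_Os03g13140), NSHB2 (LOC_Os03g12510), NSHB3 (LOC_Os03g13150) and NSHB4 (LOC_Os03g13160). Messenger RNA was sequenced from young panicles shorter than 2 cm, in 1 library of the lf2 mutant and 1 library of XD1B, the wild type. By the title of the series, LF2 stands for LATERAL FLORET 2, a chromatin remodeller of the SNF2 kind that regulates axillary meristems of the spikelet, the floret-bearing unit of the panicle. The sources used here do not state the lesion in lf2, the number of plants behind each library or the growth conditions. With 1 library per genotype no difference has a replicate check, no p-value was computed, and genotype cannot be told apart from any other difference between the libraries.

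In plant cells short of oxygen, glycolysis goes on only if NAD+ is regenerated outside the mitochondria. Pyruvate decarboxylase splits pyruvate to acetaldehyde and carbon dioxide, and alcohol dehydrogenase reduces the acetaldehyde to ethanol, giving NAD+ back. Non-symbiotic hemoglobins, also called phytoglobins, bind oxygen very tightly and oxidise nitric oxide to nitrate. In rice these genes are known mainly from submerged seedlings and germinating seeds, and dense, fast-growing tissues such as meristems can also be low in oxygen.

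Within this set of genes, 1 gene of each enzyme held nearly all of the level in both libraries. Those genes, ADH1 and PDC2, stood at nearly the same level in lf2 and XD1B in the values as deposited, which depends on the scaling described below. ADH1 had 160 FPKM in the lf2 library and 171 FPKM in the XD1B library, where FPKM counts fragments per kilobase of a gene and per 1000000 fragments of the whole library. PDC2 had 236 FPKM in lf2 and 219 FPKM in XD1B. The hemoglobin genes were near or at 0, except that NSHB2 reached 2.27 FPKM in lf2 and was listed at 0 in XD1B.

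**Figure D1:**
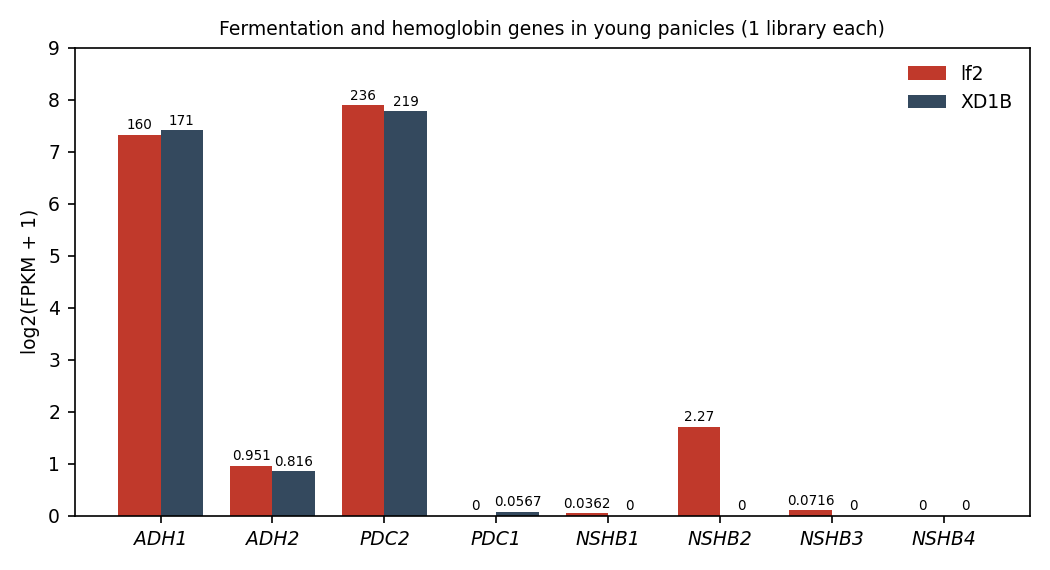
Level of each of the 8 genes as log2(FPKM + 1) in lf2 (left bar) and XD1B (right bar), with the FPKM printed above each bar and 1 library per genotype. ADH1 and PDC2 stand at 160 to 236 FPKM in both libraries, the other genes at 2.27 FPKM or less.

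The libraries held about 27373727 fragments for lf2 and 29111345 for XD1B, totals recovered from the steps between the deposited values. In lf2 21112 genes had an FPKM of 1 or more, in XD1B 20010 genes. The 3 panicle markers, the meristem gene OSH1, the floret gene MADS1 and the carpel gene DL, were present in both libraries, at 11.4 to 73.2 FPKM in lf2 and 40.3 to 190 FPKM in XD1B. All 3 were lower in lf2, with a summed level of 145 FPKM against 317 FPKM in XD1B. MADS1 and DL had log2 ratios of -1.36 and -1.74, while that of OSH1 was -0.50. The 2 leaf markers were lower in lf2, with a summed level of 23.8 FPKM against 57.8 FPKM in XD1B, most of it from 1 locus, with 21.2 FPKM in lf2 and 50.0 FPKM in XD1B, whose name did not pass the position check. The 2 tapetum markers were under 1 FPKM in both libraries, and of the 2 root markers Lsi2 was listed at 0 in both while Lsi1 had 3.04 FPKM in lf2 and 0.204 FPKM in XD1B. All 4 stress markers, TIFY11A, TIFY11C and TIFY11D of jasmonate signalling and the heat shock factor gene HSFA2A, were higher in lf2, with a summed level of 403 FPKM against 5.24 FPKM in XD1B.

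Differences were measured as log2((lf2 FPKM + 1)/(XD1B FPKM + 1)) over the 22150 genes that had an FPKM of 1 or more in lf2 or XD1B, called measured genes. The upper limit of this log2 ratio was set at 1 and the lower limit at -1, a change of 2-fold on this scale, as a mark of size without any test. Of all measured genes, 15.3% passed the upper limit and 8.23% the lower one. Of the 8 fermentation and hemoglobin genes 3 were measured, ADH1, PDC2 and NSHB2, and 1 of them, NSHB2, passed the upper limit while 0 passed the lower one. NSHB2 passed the filter through its lf2 value alone, so that single gene says nothing about the group. The median log2 ratio of all measured genes was -0.31, and bringing the median ratio of well expressed genes to 1 raises every lf2 value by a factor of 1.32. Values so raised are called median-scaled.

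**Figure D2:**
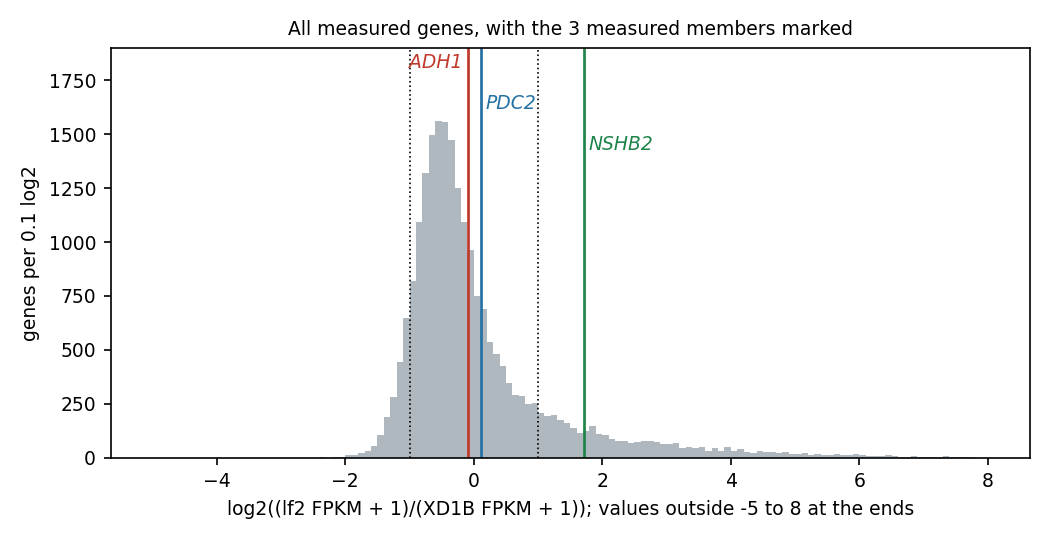
Number of measured genes per 0.1 of the log2 ratio of lf2 over XD1B (grey), with the log2 ratios of ADH1 (-0.09), PDC2 (0.11) and NSHB2 (1.71) as coloured lines and the 2-fold limits dotted. ADH1 and PDC2 lie to the right of the peak of the distribution and inside the 2-fold limits, and NSHB2 lies in the right tail.

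Among the alcohol dehydrogenase genes, ADH1, whose enzyme is the main one of ethanol formation in rice, had a log2 ratio of -0.09. The ratio of its levels, lf2 over XD1B, was 0.938, with a counting interval of 0.885 to 0.995 from at least 2107 fragments in lf2 and at least 2388 in XD1B. Counting intervals here are exact Clopper-Pearson 95% intervals of such minimum fragment numbers and cover counting error only. Larger true numbers would narrow them. The direction depends on the scaling, since the median-scaled log2 ratio of ADH1 was 0.30. Its level lay above that of 99.0% of all listed genes in lf2 and likewise in XD1B.

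ADH2, the second gene of the cluster on chromosome 11, with 2 other loci between it and ADH1, stayed just under the filter. It had 0.951 FPKM in lf2 and 0.816 FPKM in XD1B, from at least 46 and at least 42 fragments. The ratio was 1.16 with an interval of 0.750 to 1.81, so a difference was not detectable at this depth. ADH1 made up 99.4% of the summed FPKM of both genes in lf2 and 99.5% in XD1B.

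Among the pyruvate decarboxylase genes, PDC2 had the higher level in both libraries and the highest of all 8 genes. Its ratio of lf2 over XD1B was 1.08, with an interval of 1.05 to 1.10 from at least 14461 fragments in lf2 and at least 14266 in XD1B. The log2 ratio was 0.11 as deposited and 0.50 median-scaled. PDC2 lay above 99.4% of listed genes in lf2 and above 99.2% in XD1B.

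PDC1, the other decarboxylase gene of the set, was close to silent in these panicles. It was listed at 0 in lf2, which allows up to 0.181 FPKM at 3 fragments, and at 0.0567 FPKM in XD1B, which can come from as little as 1 fragment. No ratio can be read from such numbers, and the counting interval ran from 0 to 41.5.

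The balance of the enzyme genes can be read within each library. Per length, the level of PDC2 was 1.48 times that of ADH1 in lf2 and 1.29 times in XD1B, and these quotients do not change with the scaling of a library. The quotient in lf2 was 1.15 times that in XD1B. Whether replicate panicles of 1 genotype would differ as much was not tested.

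Of 1089 genes with a mean FPKM of at least 100 over the libraries, 17.8% passed the upper 2-fold limit and 21.9% the lower one, and the median log2 ratio was -0.55. As deposited, 12.6% of the 1089 genes differed by no more than a factor of 1.2 on the log2 ratio scale, and 31.3% were higher in lf2. ADH1 and PDC2, both in that range of levels, passed neither limit, as deposited or median-scaled. In bulk tissue, fewer cells that express a gene and less of its RNA per cell cannot be told apart, and this holds for every level given here.

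The hemoglobin genes lie on chromosome 3, NSHB1, NSHB3 and NSHB4 side by side and NSHB2 before NSHB1 with 60 other loci between them. NSHB2 had 2.27 FPKM in lf2, from at least 50 fragments, and was listed at 0 in XD1B, where 0 fragments allow up to 0.128 FPKM at 3 fragments. Set against that floor, its level in lf2 was at least 17.7-fold higher, and the counting interval of the ratio, which also covers the error of the lf2 fragments, began at 13.9. Its log2 ratio of 1.71 lay above that of 90.1% of measured genes. The 4 stress markers were also higher in lf2, summed at 403 FPKM in lf2 and 5.24 FPKM in XD1B. The 3 panicle markers were lower in lf2, summed at 145 FPKM in lf2 and 317 FPKM in XD1B. The part of these markers in the result was not tested.

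NSHB2 was 1 of many genes seen in lf2 alone. Of 28098 genes listed at 0 in XD1B, 510 (1.82%) had an FPKM of 1 or more in lf2, and 354 of them stood at or above the level of NSHB2. In the opposite direction, of 27269 genes listed at 0 in lf2, 11 had an FPKM of 1 or more in XD1B. At its level in lf2, NSHB2 was well below the enzyme genes, with ADH1 at 70.4 times its FPKM.

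NSHB1 and NSHB3 had 0.0362 and 0.0716 FPKM in lf2, each a value that can come from as little as 1 fragment, and were listed at 0 in XD1B. NSHB4 was listed at 0 in both libraries. Levels of these 3 genes are at or under the floor of 3 fragments, so no fold can be given. How fragments that match several gene copies were counted is not stated, which leaves the split within this adjacent group uncertain. In lf2, NSHB2 made up 95.5% of the summed hemoglobin level of 2.38 FPKM.

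With 2 libraries, likeness of pattern reduces to an equal ratio. The log2 ratio of ADH1 was shared within 0.1 by 2046 other measured genes, that of PDC2 by 1400 and that of NSHB2 by 250, so no gene could be singled out as following them. Genes next to the 8 loci, up to 3 on each side, numbered 32, of which 11 were measured. Of these 11, 3 lay beyond the upper 2-fold limit and 1 beyond the lower one, against 15.3% and 8.23% of all measured genes. The median log2 ratio of the 11 neighbours was -0.64. The locus directly before ADH1 had 21.0 FPKM in lf2 and was listed at 0 in XD1B. The locus directly before NSHB2 had 2.75 FPKM in lf2 and 0.832 FPKM in XD1B. Both are among the 3 and passed the filter through lf2 alone, so the count says nothing about the neighbours as a group. The other of the 3, 2 loci before PDC2, had 35.7 FPKM in lf2 and 12.5 FPKM in XD1B. The locus directly before PDC2 had 13.1 FPKM in lf2 and 20.1 FPKM in XD1B.

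The wider pathway was read from 48 loci in 5 lists of genes that feed, flank or regulate fermentation. Of these 38 were measured, 13 of them beyond the upper 2-fold limit and 0 beyond the lower one, against 15.3% and 8.23% of all measured genes. Of the 38, 6 passed the filter through lf2 alone, and all 6 are among the 13. The median log2 ratio of the 38 was 0.26, against -0.31 over all measured genes. The lists were chosen with earlier results of these data known, so these values are no test of the pathway. A name could be checked for 18 of the 48 loci, and only those are described by role. The others are given at most the heading they were listed under. Among the checked ones, SUS4, CIPK15 and RAmy3D passed the upper limit, and the other 12 measured ones lay inside the limits.

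**Figure D3:**
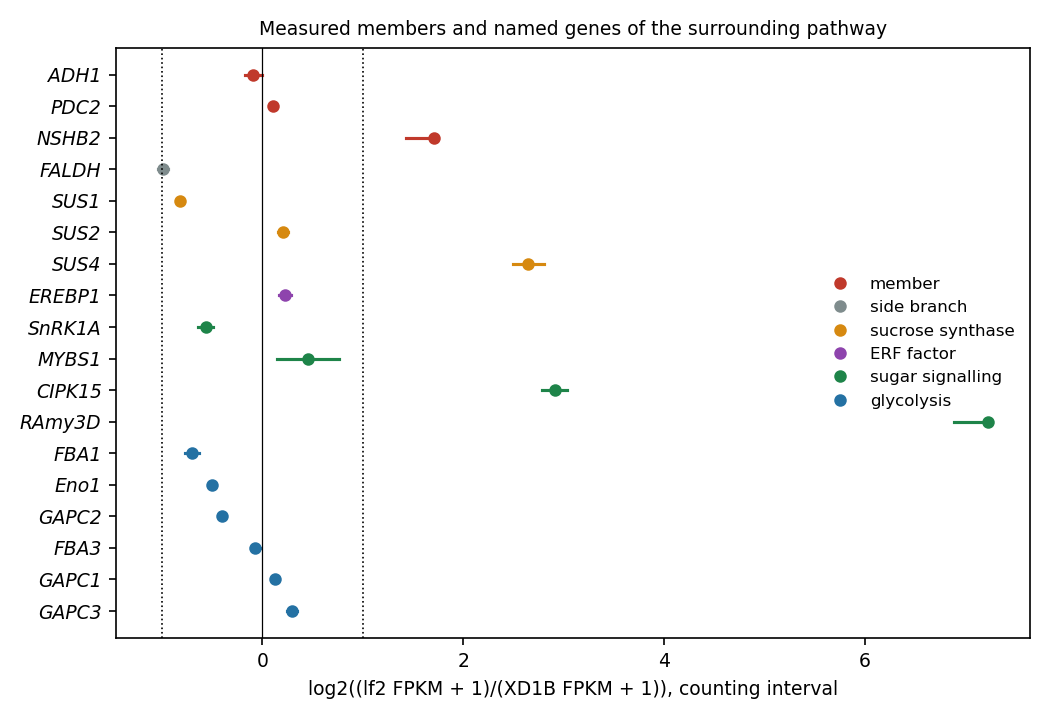
Log2 ratio of lf2 over XD1B for the 3 measured members (red) and the 15 measured pathway genes with a checked name, coloured by list, with bars for the counting interval and the 2-fold limits dotted. SUS4, CIPK15 and RAmy3D lie beyond the upper limit together with NSHB2, and the glycolysis genes lie between -0.70 and 0.30.

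Sucrose synthase cleaves sucrose at a lower energy cost than invertase and supplies sugars to glycolysis. SUS4 had 25.5 FPKM in lf2 and 3.22 FPKM in XD1B, a ratio of 7.91 with an interval of 6.93 to 9.07. SUS1, the most abundant of the family in both libraries, went the other way, at 223 FPKM in lf2 and 395 FPKM in XD1B, a ratio of 0.565 with an interval of 0.555 to 0.575 that does not reach the 2-fold rule. SUS2 stood at 148 FPKM in lf2 and 128 FPKM in XD1B, and SUS3 stayed under FPKM 1 in both. Of 3 measured sucrose synthase genes 1 thus passed the upper limit and 0 the lower one, against 15.3% and 8.23% of all measured genes. The summed level of the family, SUS3 included, was 397 FPKM in lf2 and 527 FPKM in XD1B.

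Rice seedlings under water relay sugar shortage through the protein kinases CIPK15 and SnRK1A to the transcription factor MYBS1, which acts on the promoter of the starch-degrading alpha-amylase gene RAmy3D. CIPK15 had 68.3 FPKM in lf2 and 8.21 FPKM in XD1B, a ratio of 8.32 with an interval of 7.58 to 9.14. RAmy3D had 149 FPKM in lf2 and was listed at 0 in XD1B, so that against 3 fragments in the XD1B library it was at least 704-fold higher, and the counting interval of the ratio began at 572. SnRK1A stood at 35.7 FPKM in lf2 and 53.3 FPKM in XD1B, and MYBS1 at 1.81 FPKM in lf2 and 1.05 FPKM in XD1B, both inside the 2-fold limits. Including 1 locus without a checked name, 2 of the 5 loci of this list passed the upper limit and 0 the lower one, against 15.3% and 8.23% of all measured genes, and RAmy3D passed the filter through lf2 alone. The same stress markers were higher in this library, and their part was not tested.

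Glycolysis makes the pyruvate that PDC2 and ADH1 turn to ethanol. Of 7 glycolysis loci with a checked name 6 were measured, and 0 of them passed the 2-fold rule in either direction. GAPC2, a cytosolic glyceraldehyde phosphate dehydrogenase gene and the most abundant of the list, had 632 FPKM in lf2 and 833 FPKM in XD1B, a ratio of 0.758. The enolase gene Eno1 had 425 FPKM in lf2 and 600 FPKM in XD1B. The log2 ratios of the 6 genes ran from -0.70 for the aldolase gene FBA1 to 0.30 for GAPC3, and 4 of them were below 0. Of all 12 measured loci of the glycolysis list, with or without a name, 0 passed either 2-fold limit. Of all measured genes, 15.3% passed the upper limit and 8.23% the lower one.

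Of the list of side branches of fermentation, 3 of 8 measured loci passed the upper 2-fold limit and 0 the lower one. Of all measured genes, 15.3% and 8.23% did so. The list has 12 loci, 2 of them with a checked name, and none of the 3 passing loci is among these. Among those 3, LOC_Os01g06660 was listed as a decarboxylase locus. It had 19.0 FPKM in lf2 and 3.05 FPKM in XD1B, a ratio of 6.23 with an interval of 5.37 to 7.26. PDC3, a decarboxylase gene on chromosome 7, was listed at 0 in both libraries. FALDH, the class III alcohol dehydrogenase gene that acts on glutathione adducts of formaldehyde and nitric oxide and not in ethanol formation, had 101 FPKM in lf2 and 202 FPKM in XD1B. Its ratio was 0.502 with an interval of 0.484 to 0.520, and its log2 ratio of -0.99 lay just inside the 2-fold limit. A list of 13 loci was drawn up for group VII ethylene response factors, a family known for regulating genes of low-oxygen response, but only the name of EREBP1 could be checked. Of its 10 measured loci 7 passed the upper 2-fold limit and 0 the lower one, against 15.3% and 8.23% of all measured genes. The median log2 ratio was 1.98. Of the 10, 5 passed the filter through lf2 alone, and all 5 are among the 7. The count and the median therefore say nothing about the group. None of the 7 passing loci has a checked name, and EREBP1 stood at 114 FPKM in lf2 and 97.3 FPKM in XD1B. The most abundant locus of that list, LOC_Os06g09390, stood at 157 FPKM in lf2 and 153 FPKM in XD1B.

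Over all lists, 30 loci have no checked name and are given no role beyond the heading they were listed under. Of their 23 measured loci 10 passed the upper 2-fold limit and 0 the lower one, against 15.3% and 8.23% of all measured genes. Of the 23, 5 passed the filter through lf2 alone, and all 5 are among the 10. The highest level among the 30 loci was at LOC_Os02g49720, with 1205 FPKM in lf2 and 26.0 FPKM in XD1B. The highest log2 ratio, 6.26, was at LOC_Os03g08470, with 88.3 FPKM in lf2 and 0.162 FPKM in XD1B.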

How the data were processed

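The authors deposited 1 FPKM value per gene and library, a unit taken from the name of the table. The sources used here do not name the aligner, counter, genome build, annotation or filters. Library totals were recovered as the smallest totals for which the lowest values give whole-base gene lengths and the recovered fragments do not exceed the total. Whole fragments, within 0.0002 fragments plus 3e-07 of their number, were found for 100% of genes above 0. They are lower bounds, since a common factor cannot be seen, and they sum to 88.2% of the lf2 total and 89.0% of the XD1B total. The recovery and the 2-fold rule were tested on simulated data.

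Locus names were checked against the RefSeq gene table of assembly ASM3414082v1, which holds no identifiers of the table's kind, by comparing the position along the chromosome to within 5 percentage points. All 8 members and 30 of 32 other names passed. A window this wide cannot tell neighbouring loci apart, so a pass places a name in a region and not at a given locus. No sequence was used. The members, lists and rules were chosen with earlier results of these data known. All 8 members are named, as are checked genes past the 2-fold rule and the most abundant gene of each list. Other genes of the lists were named after their values were seen. Alternatives were pseudocounts of 0.1 and 5, no filter, a filter at FPKM 5, a median ratio set to 1, and column sums set to 1000000. The software was scipy 1.17.1, numpy 2.4.6 and pandas 2.3.3 in Python 3.11.15, with figures by matplotlib 3.10.9.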

Additional observations from a re-analysis of the deposited data

How the results depend on the processing

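No paired analysis was possible because there is 1 library per genotype, and no replicate could be left out. NSHB2, the only member past the 2-fold rule, was listed at 0 in XD1B. Its log2 ratio therefore could not change sign under any of the 6 alternatives, and its unchanged sign is no sign of stability. Dropping the filter cannot alter a gene's ratio, nor bring a gene under FPKM 1 past the rule, so it says nothing about stability. With a pseudocount of 0.1 the log2 ratio was -0.65 for PDC1, 0.45 for NSHB1, 4.57 for NSHB2 and 0.78 for NSHB3, and 2978 genes were at least 2-fold lower. With a pseudocount of 5 it was 0.54 for NSHB2, which no longer passed the 2-fold rule, so 0 members were at least 2-fold higher, and the upper limit was passed by 2183 of all genes, the lower by 648. With a filter at FPKM 5 NSHB2 left the set, and again 0 members were at least 2-fold higher. Setting the median ratio to 1 gave 0.30 for ADH1, 0.50 for PDC2, 0.067 for NSHB1, 2.00 for NSHB2 and 0.13 for NSHB3, and 389 genes at least 2-fold lower. Setting the column sums to 1000000 gave 0.17 for PDC2, -0.11 for PDC1, 0.078 for NSHB1, 2.16 for NSHB2 and 0.15 for NSHB3. These shifts follow from how each alternative is built. Depth limits PDC1, NSHB1, NSHB3 and NSHB4, whose fragments, recovered as minimum numbers, were 0 or 1 in each library.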
